A study of Homo sapiens with 4 samples.

Results

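The FOXO factors and 7 of their direct target genes were followed after depletion of MAGED2 in U87-MG cells, a long-established line from a human glioblastoma. They were taken by symbol from the gene table: FOXO1, FOXO3 and FOXO4 as the factors, and KLHL24, FBXO32, IRS2, CITED2, SESN1, SESN3 and BCL6 as the targets. All 10 were found among 23444 gene entries, and all 10 passed the filter on low counts, so that none is missing from the values given here. Bulk RNA was sequenced in 4 libraries: 2 from cells with a short hairpin RNA against MAGED2 (shMAGED2) and 2 from cells with a hairpin that serves as negative control (shCON). According to the series design the knockdown was stable, whereas the treatment protocol speaks of ZDHHC15 hairpins, of transient transfection and of cells collected at 36 h. No label says whether a group was a single clone or a pool, or whether its 2 libraries came from separate cultures, so p-values measure the spread between these libraries, which may be technical.

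FOXO proteins are forkhead transcription factors that act downstream of insulin and growth factor receptors. When phosphatidylinositol 3-kinase is active, the kinase AKT phosphorylates them, they bind 14-3-3 proteins and leave the nucleus, and their target genes are transcribed less. When the pathway is quiet they enter the nucleus and switch on genes of growth arrest, autophagy, protein breakdown, cell death and insulin sensitivity. This control acts on the proteins, and transcript levels say nothing of phosphorylation or location.

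Of the 9 members that could be read, 3 carry a short sequence that FOXO proteins are known to bind near a start site. Windows of 250 bases before to 50 bases after a transcription start were read from RefSeq (GRCh38.p14) for 9 of the 10 members (not FBXO32), 17 windows in all because some genes have several starts. They were searched on both strands for GTAAACA, the core of the FOXO consensus site (TGTTTAC on the other strand), and for CAAAACA, the core of the insulin response element (TGTTTTG on the other strand). These motifs do not overlap in the windows found. Of 35116 such windows over all genes, 3.42% held the first, 4.92% the second and 8.07% either. Among the 17 windows of the members 3 held one, those of FOXO4, KLHL24 and IRS2. This count is too small to compare with the share over all genes. The matched stretches are shown 5′ to 3′ on the strand of each gene, with the matched letters in capitals.
FOXO4: cccggcgagtgGTAAACAgagacgtcagg
KLHL24: ctgacgctcagTGTTTTGgcccggacggt
IRS2: gagtcacatgtTGTTTTGctcttcttagt
The FOXO4 stretch lies at chrX:71095863-71095891 on the plus strand, and its match begins 23 bases past the first transcribed base that RefSeq gives. The GENCODE gene begins further downstream, so this stretch lies before it. The KLHL24 stretch lies at chr3:183635580-183635608 on the plus strand and the IRS2 stretch at chr13:109786606-109786634 on the minus strand, with matches that begin 32 and 40 bases before the RefSeq start. The KLHL24 stretch falls in the first exon of the GENCODE gene and the IRS2 stretch before its first exon. A match is a string of letters and does not show binding, and the lack of one in another of the 17 windows says only that these letters were not in it.

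MAGED2, the gene targeted by the hairpin and a member of the melanoma antigen family on chromosome X, was low in both knockdown libraries. It had 17.9 and 21.7 CPM (the count relative to the library total after scaling by the trimmed mean of M values, TMM) in shMAGED2, against 175 and 178 CPM in shCON, so that 11.2% of the control level remained. For ZDHHC15 no library held a read, and 0 counts allow a level of up to 0.0817 to 0.102 CPM (3 counts, counting error only). Total counts ran from 28673774 to 36234336 per library. The first knockdown library stood apart: mitochondrially encoded genes took 10.1% of its counts and 4.88% in the second, against 3.92% and 3.90% in shCON. The median absolute log2 difference between the libraries of a group was 0.23 in shMAGED2 and 0.11 in shCON. Among 9 markers of glial cells and glioblastoma, VIM (8190 ± 866 CPM in shMAGED2 and 7751 ± 175 CPM in shCON; SD, n = 2 each) and CD44 were abundant, while the astrocyte marker GFAP had 1.17 ± 0.31 CPM in shMAGED2 and 2.65 ± 0.54 CPM in shCON, a difference that did not pass (edgeR, adjusted p = 0.0784). Of the 6 glial markers tested, NES rose (log2 change 1.88, SE 0.18), and OLIG2 (-1.45, SE 0.27) and CHI3L1 (-0.45, SE 0.12) fell, while S100B, SOX2 and FABP7 did not pass the filter on low counts. Markers of neurons summed to 52.7 and 40.7 CPM in shMAGED2, against 82.5 and 77.6 CPM in shCON. Among them MAP2 fell (-1.96, SE 0.29), while SNAP25 was higher (0.44) and SYT1 lower (-0.45) without passing, and RBFOX3 was not tested. Markers of endothelium summed to 9.64 and 8.47 CPM in shMAGED2, against 12.2 and 14.0 CPM in shCON. Of these KDR fell (-0.68, SE 0.18), while PECAM1 was higher (2.34) and VWF lower (-2.31) without passing, and CDH5 was not tested. Markers of blood cells summed to between 0 and 1.39 CPM per library, with HBB at 0, and those of epithelial cells to between 1.81 and 3.97 CPM, with CDH1 at 0. The part of these marker changes in the results on FOXO genes was not tested.

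Of the 10 members, 4 fell and 1 rose in shMAGED2 at an adjusted p under 0.05 (edgeR's quasi-likelihood test, with Benjamini-Hochberg adjustment over 15293 genes). Across all genes tested, 11.6% fell, 12.3% rose and 23.9% changed in either direction. The members were chosen with earlier results of these data known, so these counts are no test of the members as a set. FOXO4, KLHL24, FBXO32 and IRS2 fell, CITED2 rose, and FOXO1, FOXO3, SESN1, SESN3 and BCL6 did not pass. In bulk RNA, fewer cells with a transcript and less of it per cell cannot be told apart. The groups did not overlap for 7 of the 10 members (3 higher, 4 lower in shMAGED2), beside 66% of all genes tested (33% higher, 33% lower), a share near that background. The median log2 change of the members was 0.02, beside 0.0028 over all genes. When either shMAGED2 library was left out, the members called with all libraries kept their directions, but BCL6 turned. Its log2 change was -0.25 without shMAGED2 replicate 1, the library that stood apart, and 0.58 without shMAGED2 replicate 2. When either shCON library was left out, KLHL24 and FBXO32 were the 2 members called lower and 0 were called higher.

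**Figure D1:**
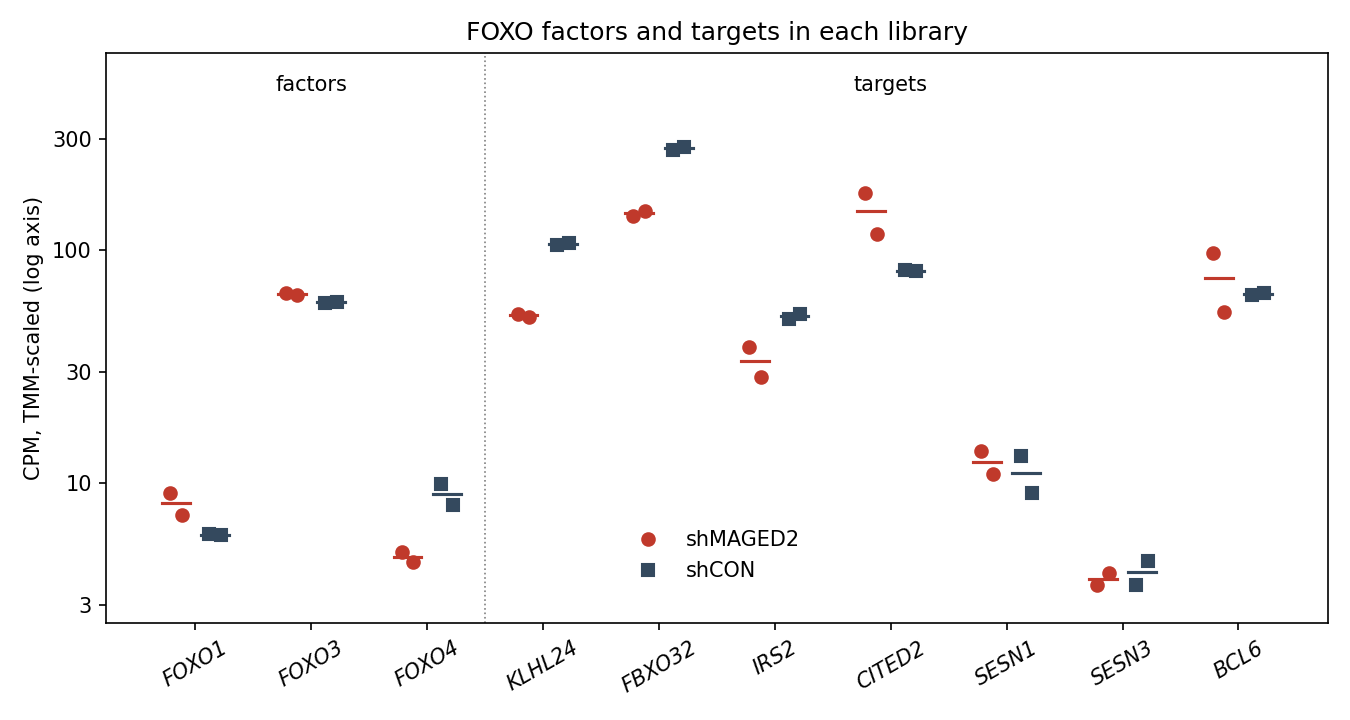
CPM of the 3 FOXO factors and 7 targets on a log axis, with 1 point per library (circles shMAGED2, squares shCON) and a bar at each group mean. KLHL24 and FBXO32 lie well apart between the groups with little spread, whereas the 2 shMAGED2 points of BCL6 fall on either side of the shCON points.

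FOXO3 was the main FOXO transcript in these cells. FPKM, which divides by gene length and so permits levels of different genes to be compared, put FOXO3 at 8.10 and 8.53 in shMAGED2, against 7.98 and 7.99 in shCON. FOXO4 had 1.40 and 1.35 FPKM in shMAGED2, against 2.94 and 2.39 FPKM in shCON. FOXO1 had 1.44 and 1.24 FPKM in shMAGED2, against 1.03 and 1.02 FPKM in shCON. In shCON the order was thus FOXO3, FOXO4, FOXO1 with no overlap between libraries, whereas in shMAGED2 the values of FOXO4 and FOXO1 overlapped. FOXO6, the fourth mammalian FOXO gene, had 0 counts in every library.

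FOXO4 (ENSG00000184481; chromosome X, 71096197 to 71103535, plus strand, in hg38) was the factor that changed. It is the shortest of the 3 FOXO genes, and AKT restrains its protein as it does the others. FOXO4 had 149 and 168 counts in shMAGED2, and 345 and 237 counts in shCON. On the CPM scale this was 5.06 and 4.58 in shMAGED2, against 9.89 and 8.08 in shCON, and the groups did not overlap. FOXO4 fell by 0.90 in log2 units (SE 0.22; edgeR, adjusted p = 0.0331). The call was lost without shCON replicate 1 (log2 change -0.75, adjusted p = 0.252) and without shCON replicate 2 (-1.04, adjusted p = 0.0941), fits whose spread rests on the knockdown pair.

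FOXO1 (ENSG00000150907; chromosome 13, 40469953 to 40666597, minus strand), which in liver and muscle directs the fasting response, had 268 and 268 counts in shMAGED2 and 210 and 175 in shCON. Scaled, these were 9.10 and 7.30 CPM in shMAGED2, against 6.02 and 5.97 CPM in shCON. Both knockdown libraries lay above both controls, but the difference of 0.45 on the log2 scale (SE 0.21) did not pass (edgeR, adjusted p = 0.182). Some FOXO1 transcripts share exon sequence with LINC00598 on the same strand, which holds 3.61% of its 50-base words, so a few reads could belong to either.

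FOXO3 (ENSG00000118689; chromosome 6, 108559835 to 108684774, plus strand), linked to stress resistance and neural stem cell upkeep in mice, differed little. It had 65.1 and 64.1 CPM in shMAGED2, against 59.5 and 59.7 CPM in shCON. The log2 difference was 0.12 (SE 0.10; edgeR, adjusted p = 0.429), and over all the other fits run it stayed between 0.05 and 0.13. Of the 50-base words in FOXO3 transcripts, 27.8% occur in transcripts of other genes and 15.7% in the processed pseudogene FOXO3B alone, and since the sources used here do not give the handling of shared reads, its level is uncertain.

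As a description, the mix of FOXO transcripts was as follows. FOXO4 made up 12.8% and 12.1% of the summed FPKM of the 3 genes in shMAGED2, against 24.6% and 21.0% in shCON. FOXO3 made up 74.0% and 76.7% in shMAGED2, against 66.8% and 70.1% in shCON, and FOXO1 13.2% and 11.2% in shMAGED2, against 8.61% and 8.92% in shCON. No share overlapped between the groups, but the 3 shares sum to the whole and so are not independent. The exact two-sided permutation p of each was 0.333, the smallest that 2 against 2 libraries allow, so the test could not show a difference in the mix. The sum itself was 11.0 ± 0.14 FPKM in shMAGED2 and 11.7 ± 0.39 FPKM in shCON (SD, n = 2 each), a log2 difference of -0.08 (exact permutation p = 0.333). In the sum the lower FOXO4 level was thus partly offset by the FPKM of FOXO1 and FOXO3, whose own differences did not pass.

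**Figure D2:**
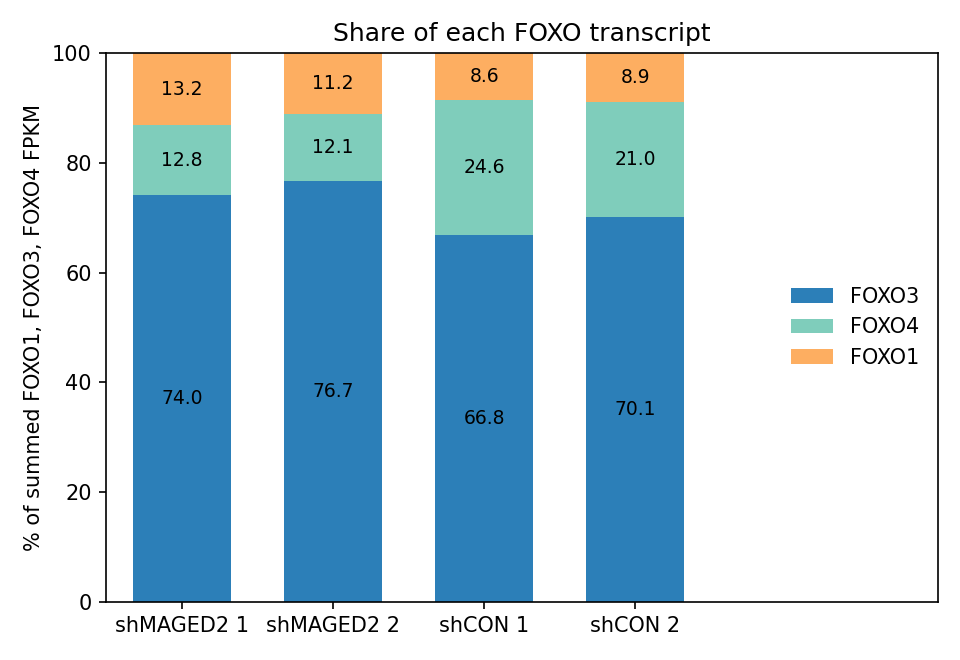
Share of each FOXO transcript in the summed FPKM of FOXO1, FOXO3 and FOXO4, in percent, for each of the 4 libraries. FOXO4 takes 12.8% and 12.1% in the shMAGED2 libraries and 24.6% and 21.0% in the shCON libraries.

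Among the targets, KLHL24 and FBXO32 fell. They had the smallest p-values of the 10 members, and their libraries lay close together within each group. KLHL24 (ENSG00000114796; chromosome 3, 183635568 to 183684477, plus strand) encodes a Kelch-repeat adaptor of a cullin ubiquitin ligase that in skin controls the turnover of keratin. Its level was 53.1 and 51.8 CPM in shMAGED2, against 105 and 107 CPM in shCON. KLHL24 fell by 1.02 in log2 units (SE 0.10; edgeR, adjusted p = 0.00184), to 49.3% of the control level.

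FBXO32 (ENSG00000156804; chromosome 8, 123497889 to 123541206, minus strand), also called atrogin-1, encodes the F-box subunit of a ubiquitin ligase and is the classic FOXO target of wasting muscle. It was the member with the highest level per length in shCON. It had 139 and 148 CPM in shMAGED2, against 269 and 276 CPM in shCON. FBXO32 fell by 0.93 in log2 units (SE 0.09; edgeR, adjusted p = 0.00207), to 52.6% of the control level. KLHL24 and FBXO32 passed the threshold in all 16 other fits, with log2 changes of -1.08 to -0.94 and of -0.99 to -0.88. TRIM63, the other ubiquitin ligase that FOXO proteins raise in wasting muscle, was close to absent, with 0 and 11 counts in shMAGED2 and 0 and 2 counts in shCON, and was not tested.

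IRS2 fell as well. It encodes insulin receptor substrate 2, the docking protein through which the insulin receptor activates phosphatidylinositol 3-kinase, and FOXO proteins raise it when insulin is low. IRS2 (ENSG00000185950; chromosome 13, 109752698 to 109786568, minus strand) had 38.2 and 28.7 CPM in shMAGED2, against 50.8 and 53.4 CPM in shCON. The groups did not overlap, and the difference between the knockdown libraries was 0.42 on the log2 scale. The fall was 0.64 (SE 0.16; edgeR, adjusted p = 0.037), and it did not pass without shCON replicate 1 (adjusted p = 0.142) or shCON replicate 2 (adjusted p = 0.181). Its relative IRS1 had 173 and 156 CPM in shMAGED2, against 137 and 134 CPM in shCON, a log2 difference of 0.28 (SE 0.10) that did not pass (edgeR, adjusted p = 0.0913).

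CITED2 was the member that rose. It encodes a transcriptional regulator that binds CBP and p300 and thereby limits the hypoxia factor HIF1. CITED2 (ENSG00000164442; chromosome 6, 139371807 to 139374620, minus strand) had 176 and 117 CPM in shMAGED2, against 81.8 and 81.3 CPM in shCON. Both knockdown libraries were above the controls, although they differed from each other by 0.59 on the log2 scale. The rise was 0.84 (SE 0.19; edgeR, adjusted p = 0.0281), 1.80-fold. It was 0.52 without shMAGED2 replicate 1 and 1.11 without shMAGED2 replicate 2, and it did not pass without shCON replicate 1 (adjusted p = 0.106) or replicate 2 (adjusted p = 0.0877). In shMAGED2 CITED2 was the member with the highest level per length, at 68.2 and 48.5 FPKM, against 34.1 and 33.9 FPKM in shCON. FBXO32 led in shCON with 39.3 and 40.7 FPKM, and had 18.8 and 22.2 FPKM in shMAGED2.

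BCL6 gave opposite answers in the knockdown libraries. It encodes a zinc finger repressor best known from germinal centre B cells, and FOXO proteins activate its transcription. BCL6 (ENSG00000113916; chromosome 3, 187721377 to 187745727, minus strand) had 97.0 and 54.4 CPM in shMAGED2, against 63.8 and 65.6 CPM in shCON. With all 4 libraries the log2 difference was 0.23 (SE 0.26; edgeR, adjusted p = 0.567). In fits that take their spread from the close shCON pair, it was -0.25 without shMAGED2 replicate 1 and 0.58 without shMAGED2 replicate 2. The higher value came from the library with 10.1% mitochondrially encoded counts, whose part in the result was not tested, and no direction can be given for BCL6. Antisense genes also overlap BCL6 exons, the foremost AC072022.2 with 4.50% of its 50-base words.

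The sestrins SESN1 and SESN3 did not pass. Sestrins restrain the growth kinase complex mTORC1 when amino acids are short, and SESN1 and SESN3 are known FOXO targets. SESN1 (ENSG00000080546; chromosome 6, 108986437 to 109094819, minus strand) had 13.8 and 10.9 CPM in shMAGED2, against 13.0 and 9.10 CPM in shCON. Its values overlapped, and the shCON libraries differed more from each other (0.52 on the log2 scale) than the group means did (0.15, SE 0.24; edgeR, adjusted p = 0.682). An antisense gene, AL390208.1, shares 6.33% of the 50-base words of SESN1 transcripts, and without a stated strand setting reads from the pair cannot be told apart. SESN3 (ENSG00000149212; chromosome 11, 95165513 to 95232541, minus strand) was the lowest member, with 108 and 151 counts in shMAGED2 and 127 and 136 counts in shCON. On the CPM scale SESN3 had 3.67 and 4.11 in shMAGED2, against 3.64 and 4.64 in shCON, and the log2 difference was -0.09 (SE 0.26; edgeR, adjusted p = 0.843). SESN2, the third sestrin, is among the other FOXO targets listed further on, and it behaved otherwise. It had 39.2 ± 5.5 CPM in shMAGED2 and 152 ± 5.3 CPM in shCON (SD, n = 2 each; log2 change -1.96, SE 0.13, edgeR adjusted p = 0.000839).

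**Figure D3:**
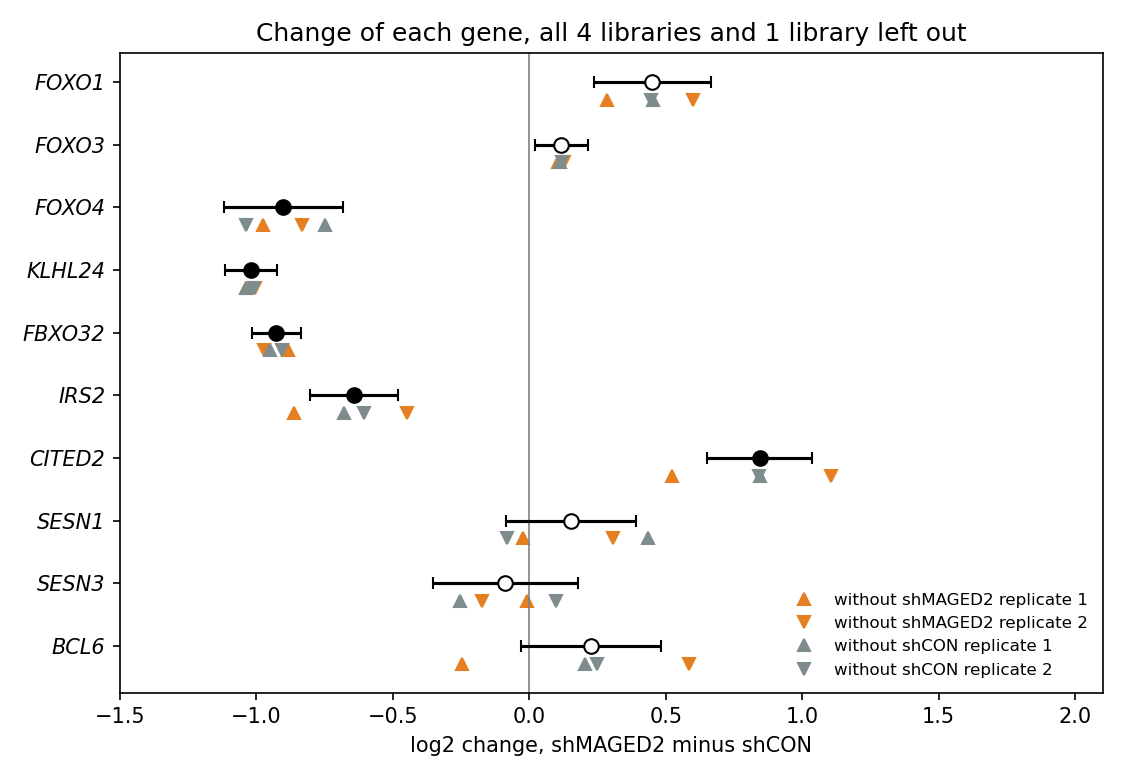
Log2 change (shMAGED2 minus shCON) of each member with its SE in the fit to all 4 libraries (circles, filled where the adjusted p is under 0.05), and the change with 1 library left out (triangles). KLHL24 and FBXO32 hardly move, while BCL6 lies at -0.25 without shMAGED2 replicate 1 and at 0.58 without shMAGED2 replicate 2.

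Within shCON, levels per length spanned 0.37 FPKM for SESN3 to 40.7 FPKM for FBXO32. Ordered from the highest, they ran FBXO32, CITED2, BCL6, KLHL24, FOXO3, IRS2, SESN1, FOXO4, FOXO1 and SESN3, and SESN1 and FOXO4 were the neighbours whose libraries overlapped. In shMAGED2 the order was CITED2, BCL6, FBXO32, FOXO3, KLHL24, IRS2, SESN1, FOXO4, FOXO1 and SESN3. There BCL6 overlapped FBXO32, IRS2 overlapped SESN1, and FOXO4 overlapped FOXO1.

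Other genes that FOXO proteins are known to activate were lower more often than higher. Of 33 such genes, a list written from textbook knowledge with earlier results of these data known, 28 were tested, of which 14 fell and 3 rose (60.7% called, beside 23.9% of all genes). Their median log2 change was -0.40, beside 0.0028 over all genes. Among those with the smallest p, the autophagy genes GABARAPL1 and MAP1LC3B encode proteins of the autophagosome membrane. GABARAPL1 averaged 33.3 ± 2.2 CPM in shMAGED2 and 79.0 ± 1.5 CPM in shCON, and MAP1LC3B 197 ± 9.5 CPM in shMAGED2 and 358 ± 16 CPM in shCON (SD, n = 2 each). TSC22D3, a leucine zipper protein that glucocorticoids induce, had 10.2 ± 2.2 CPM in shMAGED2 and 30.8 ± 0.76 CPM in shCON, and SESN2 completed the 4. For these 4 genes the edgeR adjusted p-values ran from 0.000839 to 0.0037.

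The rest of the falling targets, named after their values were seen, included pro-death genes, BCL2L11 (log2 change -1.05, SE 0.22) and BBC3 (-1.42, SE 0.28), and brakes of the cell cycle, CCNG2 (-0.92, SE 0.18), CDKN1A (-0.48, SE 0.09) and RBL2 (-0.35, SE 0.09). The mitochondrial superoxide dismutase SOD2, which NF-kB also drives, changed by -1.16 (SE 0.16). CDKN1B, a cell cycle inhibitor often used as a FOXO readout, stood at 38.2 CPM in shMAGED2 and 38.2 CPM in shCON (log2 difference 0.00, SE 0.13; edgeR, adjusted p = 1.00). The 3 that rose were TXNIP, which binds thioredoxin and limits glucose uptake (248 ± 25 CPM in shMAGED2 and 35.2 ± 0.99 CPM in shCON), BNIP3, a mitophagy receptor (log2 change 0.52, SE 0.12), and the secreted IGFBP1, which was low (3.03 ± 1.3 CPM in shMAGED2 and 0.95 ± 0.29 CPM in shCON; SD, n = 2 each; edgeR, adjusted p = 0.0487). IGFBP1 did not pass with upper-quartile scaling (adjusted p = 0.0523), library size alone (0.0627), a non-robust fit (0.0516), limma-voom (0.0631) or either FPKM fit (0.0719 and 0.0666), nor without shMAGED2 replicate 2 (0.109), shCON replicate 1 (0.212) or shCON replicate 2 (0.0785). BNIP3 (edgeR, adjusted p = 0.0323) did not pass without shCON replicate 1 (0.198) or replicate 2 (0.226). The number of these targets called lower changed when a library was left out, as did the number over all genes. It is thus not a measure of this list alone.

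Most genes of the insulin, phosphatidylinositol 3-kinase and AKT arm that lies upstream of FOXO did not pass. Of 25 listed, 24 were tested, of which 5 fell and 1 rose. In either direction 25% were called, beside 23.9% of all genes, where 11.6% fell and 12.3% rose. The median log2 change of the arm was -0.11, beside 0.0028 over all genes. INSR, the insulin receptor and itself a FOXO target, had 19.8 and 20.8 CPM in shMAGED2, against 55.4 and 52.2 CPM in shCON (log2 change -1.40, SE 0.12; edgeR, adjusted p = 0.00144). TRIB3, a pseudokinase that binds AKT, had 13.9 ± 2.5 CPM in shMAGED2 and 96.2 ± 1.9 CPM in shCON (SD, n = 2 each), and the lipid phosphatase gene INPPL1 changed by -0.43 (SE 0.10; edgeR, adjusted p = 0.0295), a call lost without shCON replicate 1 (0.223) or replicate 2 (0.309). The gene that rose was MAPKAP1, whose product is the SIN1 subunit of the mTORC2 complex that phosphorylates AKT, with 394 ± 9.7 CPM in shMAGED2 and 220 ± 6.5 CPM in shCON (SD, n = 2 each). The kinase genes AKT1 and AKT2 did not pass: the log2 differences were 0.01 (SE 0.11) for AKT1 and 0.18 (SE 0.11) for AKT2, with edgeR adjusted p-values of 0.945 and 0.262. The value of AKT1 went below 0 under upper-quartile scaling (-0.032) and with library size alone (-0.042). Fewer genes of this arm passed without either shCON library and more without either shMAGED2 library, as was so over all genes.

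Genes for proteins that modify or bind FOXO were the third list. Of 25 listed, 24 were tested, of which 7 rose and 1 fell (33.3% called, beside 23.9% of all genes), with a median log2 change of 0.24. CDK2, the S phase kinase, which phosphorylates FOXO1, had 79.9 ± 1.9 CPM in shMAGED2 and 30.9 ± 1.9 CPM in shCON. YWHAH, the eta form of the 14-3-3 proteins that hold FOXO in the cytoplasm, had 206 ± 26 CPM in shMAGED2 and 96.5 ± 0.57 CPM in shCON (SD, n = 2 each). KAT2B, an acetyltransferase, rose by 1.10 (SE 0.15) and SKP2, the ubiquitin ligase subunit that marks FOXO1 for breakdown, by 0.79 (SE 0.13) on the log2 scale, and for these 4 the edgeR adjusted p-values were 0.00127 to 0.0113. SKP2 did not pass without shCON replicate 1 (adjusted p = 0.102) or replicate 2 (0.117), while CDK2, YWHAH and KAT2B did. The other 3 that rose, named after their values were seen, were the 14-3-3 genes YWHAE (log2 change 0.53; edgeR, adjusted p = 0.0149), YWHAQ (0.34; adjusted p = 0.0369) and YWHAG (0.31; adjusted p = 0.0489). Of the other 14-3-3 genes in the list, YWHAB (0.06; adjusted p = 0.648) and YWHAZ (0.26; adjusted p = 0.0798) did not pass. SFN, with 3 and 5 counts in shMAGED2 and 2 and 0 counts in shCON, was not tested. CSNK1A1, a casein kinase, fell by 0.50 (SE 0.14; adjusted p = 0.0465), a call lost with library size alone (0.0604), in the FPKM fits (0.172 and 0.176) and without shCON replicate 1 (0.235) or replicate 2 (0.224). The count of regulators depends on the fit: 5 rose with a replicate block, with upper-quartile scaling and with library size alone. Over all genes these fits called 1706, 1655 and 1508 higher, beside 1874 in the main fit. It depends on the libraries too: fewer regulators passed without either shCON library and more without either shMAGED2 library, as was so over all genes.

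**Figure D4:**
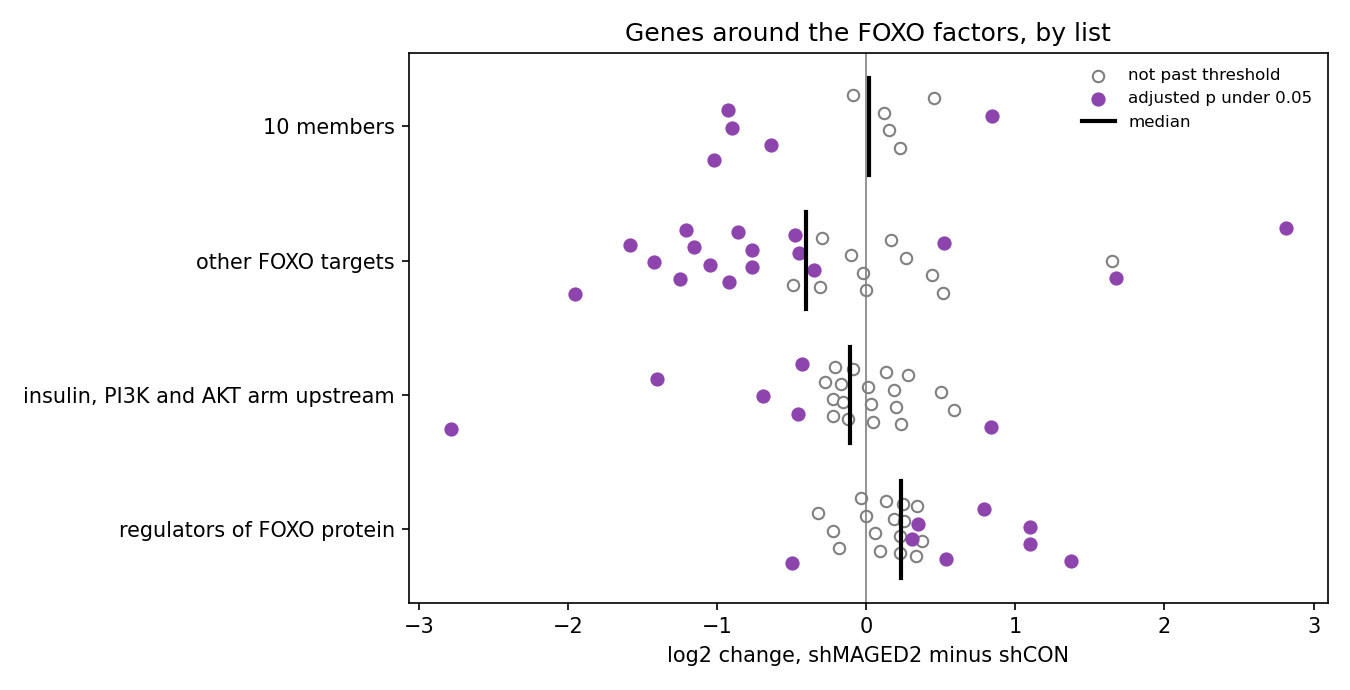
Log2 change (shMAGED2 minus shCON) of every tested gene in the 10 members and in the 3 lists around them, with 1 point per gene, filled where the adjusted p is under 0.05, and a black bar at each median. The medians are 0.02 for the members, -0.40 for other FOXO targets, -0.11 for the upstream arm and 0.24 for regulators of FOXO protein.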

How the data were processed

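HISAT2, StringTie, SAMtools and the hg38 build are named, without role or version, per the submitters' processing notes. The deposited counts are whole numbers per gene and library, not normalised. The deposited FPKM values are the authors' own, relative to gene length and library total, with the lengths not given. The sources used here do not give the annotation, the strand setting or the rule for shared reads. Per the labels' protocols, a NEBNext Ultra kit made the libraries. Counts were tested in edgeR 4.0.16 (R 4.3.3) with filterByExpr, TMM scaling and robust quasi-likelihood fits on group alone, two-sided, with Benjamini-Hochberg adjustment over 15293 genes and a threshold of 0.05. The standard error is the log2 change divided by the root of the F statistic. A symbol with several entries (SOD2) was read from the entry with more counts.

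Members and lists were chosen with earlier results of these data known. The genes named are the members, MAGED2, ZDHHC15, FOXO6, AKT1, AKT2, up to 4 per direction with the smallest p in each list, and for each factor the 3 genes with the nearest profile; other genes, among them IRS1, TRIM63 and CDKN1B, were chosen after seeing values. Some genes that the rule picks are not reported here. Alternatives were DESeq2 1.42.0, limma 3.58.1 (voom, and log2(FPKM + 1) or log2(FPKM + 0.1) where 2 or more libraries reached an FPKM of 1), other scalings and filters, a replicate block, each library left out and removal of mitochondrially encoded genes, which was added after seeing the data. Gene positions are from GENCODE on hg38. Words of 50 bases were compared with all GENCODE transcripts on both strands.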

Additional observations from a re-analysis of the deposited data

How the results depend on the processing

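With all libraries in the fit, other scalings, filters, tools and units kept 4 members lower and 1 higher, and changed no direction of a member. Removal of mitochondrially encoded genes left the same counts of members, 4 and 1. The replicate numbers are shared between groups without a stated pairing (correlation of replicate differences over genes -0.018), and the fit with a replicate block gave 1706 genes higher and 1630 lower, with 4 members lower and 1 higher. Leaving out 1 library moved the genes called higher between 567 and 3725 (1874 with all) and lower between 533 and 3722 (1775 with all), members called higher between 0 and 2 and lower between 2 and 5. Over the same fits other FOXO targets ranged from 1 to 4 higher and 6 to 16 lower, the upstream arm from 1 to 4 higher and 2 to 8 lower, and regulators of FOXO protein from 3 to 14 higher and 0 to 3 lower. The fits without a knockdown library take their spread from the close shCON pair. The log2 difference of summed FOXO FPKM ranged from -0.12 to -0.05. The fit to log2(FPKM + 0.1) called 1244 genes higher, and both FPKM fits called 4 regulators higher and 0 lower. Library size alone called 0 regulators lower, and DESeq2 called 2 genes of the upstream arm higher. Directions that turned belong to results that did not pass with all libraries in the fit. They were SESN1 (-0.081 to 0.43), SESN3 (-0.26 to 0.10) and BCL6 (-0.25 to 0.58) with 1 library left out. BCL6 was called lower without shMAGED2 replicate 1 and higher without shMAGED2 replicate 2. AKT1 turned as well, at -0.12 to 0.14 with 1 library left out, -0.032 (upper quartile), -0.042 (library size) and -0.0067 (5 CPM filter). In the fits to log2(FPKM + 1) and log2(FPKM + 0.1), PPP1R7 (-0.10 and -0.10) and ANKH (-0.014 and -0.016), named further on, turned too. The cause was not tested. Counts of 108 to 345 per library limit FOXO1, FOXO4 and SESN3. SESN3 has no value in the FPKM fits and under the 5 CPM filter, which it did not pass. With 1 library left in a group, its spread is taken to equal that of the remaining pair.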

Other observations

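Genes that averaged 5 CPM or more and whose profiles over the 4 libraries lay nearest to each factor (Euclidean distance of centred log2 CPM, among 11232 genes) are given as a description, since 4 libraries hold little more than a group difference and the spread of each pair. For FOXO1 they were PRPF8, WDR43 and HIPK2 (distances 0.006, 0.02 and 0.03), with log2 changes of 0.45, 0.45 and 0.47. For FOXO3 they were PPP1R7, THOC5 and ANKH, with 0.12, 0.13 and 0.11. For FOXO4 they were LDHD and NUDT4, with -0.86 and -0.85, and a gene model without annotation with -0.95.

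The ratio of deposited counts to deposited FPKM implies a gene length in each library, which moves where the authors' FPKM weighs transcripts of different length differently. For 6 of the 10 members it varied by under 1% across libraries. For KLHL24 it was 6928 and 6993 bases in shMAGED2 and 7243 and 7193 bases in shCON, a range of 4.45%, which 44.2% of 11485 genes reached or exceeded. For SESN1 it was 3246 and 3206 bases in shMAGED2 and 3024 and 3245 bases in shCON, so its shCON libraries differ in this ratio as well as in level.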
